A study of Homo sapiens with 30 samples.

Results

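The transcriptome of SUDHL5, a human diffuse large B cell lymphoma line, was compared after 24 h in 0.2 µM doxorubicin and without the drug at 0 h, in 3 libraries of each kind. These are 6 of the 30 libraries of a study of doxorubicin in lymphoma lines, and they were chosen by their line and treatment labels alone. Of 60656 genes in the table, the 13553 with an FPKM (reads scaled for sequencing depth and for transcript length) of at least 1 in at least 3 of the 6 libraries are described. The same table holds OCI-LY19, HT and OCI-LY3, also diffuse large B cell lymphoma lines, each at 0 h and after 24 h in the same dose. All of these lines carry the genotype label WT, and SUDHL5 and OCI-LY19 were grown in the same medium. The titles of the treated libraries also hold the word ctrl; they were grouped as treated because the treatment and time labels say so. No untreated library was taken at 24 h, so the drug and a further day in culture cannot be told apart in any result below.

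Doxorubicin is an anthracycline that traps topoisomerase II on DNA and leaves double-strand breaks. Such breaks activate ATM and CHK2, which stabilize p53; p53 then induces genes for cell cycle arrest (CDKN1A), for its own degradation (MDM2) and for apoptosis (BBC3, BAX, FAS). Hypoxia-inducible factor 1 (HIF-1), a separate stress regulator, raises glycolysis and glucose uptake genes when oxygen is low, and SREBP factors drive cholesterol and fatty acid synthesis when sterols are scarce.

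At 24 h, p53 target genes, MHC class II genes and most genes of the B cell receptor and lineage list were higher than in the untreated cells. Genes of hypoxia adaptation, glycolysis, cholesterol synthesis and mitosis were lower. CDKN1A, the p21 inhibitor of cyclin-dependent kinases, had the largest rise among the genes named here, from a mean of 13.2 to 236 FPKM. PFKFB4, a regulator of glycolytic flux, had the largest fall, from 51.5 to 4.34 FPKM.

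Motif matches are shown first, because the groups that moved most are classical targets of p53 and HIF-1. The sequences are from RefSeq (GRCh38.p14) and were matched by symbol for 8754 of the 13553 genes; the 250 bases before the annotated start were searched on both strands. The first set are the genes that rose at least 2-fold and hold the 20-base p53 consensus (by name, without a spacer and with the C and G of both half-sites kept) with at most 2 mismatches. Capitals mark the match, and each window is written 5′ to 3′ in the direction of the gene.
LNCTAM34A (chr1:9182124-9182183, plus strand): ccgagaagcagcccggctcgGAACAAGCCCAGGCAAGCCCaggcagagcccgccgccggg
PURPL (chr5:27472145-27472204, plus strand): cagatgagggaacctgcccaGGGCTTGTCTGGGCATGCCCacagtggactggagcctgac
LINC02051 (chr3:186476398-186476457, plus strand): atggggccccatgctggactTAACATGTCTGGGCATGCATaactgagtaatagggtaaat
CXCR2 (chr2:218125923-218125982, plus strand): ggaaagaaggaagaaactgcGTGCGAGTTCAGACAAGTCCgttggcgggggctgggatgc
GPX1 (chr3:49358501-49358560, minus strand): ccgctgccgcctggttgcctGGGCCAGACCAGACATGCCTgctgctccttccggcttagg
AEN (chr15:88621286-88621339, plus strand): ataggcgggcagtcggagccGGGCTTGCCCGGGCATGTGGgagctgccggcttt
LNCTAM34A and PURPL, both long non-coding RNAs, matched with 0 mismatches and were the only 2 of the 8754 promoters to do so. A match with at most 2 mismatches was present in 0.194% of all searched promoters (17 of 8754), in 0.499% of those of genes that rose (10 of 2004) and in 2.41% of those that rose at least 2-fold (6 of 249). Among genes that fell it was present in 0.0791% (2 of 2527), and among genes that did not pass the test in 0.118% (5 of 4223). Of the 32 searched genes that rose in the p53, BCL2 family and death receptor lists, AEN alone held such a match in this window. LNCTAM34A rose by 2.28 on the log2 scale, PURPL by 2.23, LINC02051 by 1.98, CXCR2 by 1.90, GPX1 by 1.58 and AEN by 1.53. These 6 genes were picked for their sequence matches after the changes were known, and the matches describe letters, not bound sites. CXCR2 reached the level filter through the treated libraries alone, so it could not have been counted among the genes that fell. The shares of genes that rose can hold other such genes.

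The second set are promoters of falling hypoxia and glycolysis genes. The motif ACGTG, the core that HIF-1 and several other basic helix-loop-helix factors recognize, was searched on either strand, so that CACGTG counts as 2 overlapping matches. Capitals mark each match.
LDHA (chr11:18394313-18394562, plus strand): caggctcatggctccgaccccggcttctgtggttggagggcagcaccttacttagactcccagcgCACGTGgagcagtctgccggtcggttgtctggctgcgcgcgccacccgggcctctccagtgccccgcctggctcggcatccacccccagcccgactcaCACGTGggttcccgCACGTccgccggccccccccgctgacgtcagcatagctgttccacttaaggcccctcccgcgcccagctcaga
ALDOC (chr17:28576896-28577145, minus strand): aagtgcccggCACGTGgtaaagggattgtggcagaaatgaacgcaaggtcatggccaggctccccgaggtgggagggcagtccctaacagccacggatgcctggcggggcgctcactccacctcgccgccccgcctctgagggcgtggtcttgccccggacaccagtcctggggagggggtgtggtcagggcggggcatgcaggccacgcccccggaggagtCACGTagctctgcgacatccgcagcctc
ANKRD37 (chr4:185396591-185396840, plus strand): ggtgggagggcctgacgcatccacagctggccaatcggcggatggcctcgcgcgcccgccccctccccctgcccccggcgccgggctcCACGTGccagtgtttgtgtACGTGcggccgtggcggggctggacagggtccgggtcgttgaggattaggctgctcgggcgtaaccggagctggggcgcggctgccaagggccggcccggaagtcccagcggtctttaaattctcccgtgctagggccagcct
LDHA, lactate dehydrogenase A, held 5 matches, and ALDOC, an aldolase, and ANKRD37, a hypoxia-inducible ankyrin repeat protein, held 3 each, the highest numbers in these lists. At least 1 match was present in 24.5% of all searched promoters, 28% of those of genes that fell and 34.9% of those of genes that fell at least 2-fold. Among the hypoxia and glycolysis genes that fell, 13 of 28 (46.4%) had one; PFKFB4, ADM and SLC2A1 had none in this window. Among genes that rose the share was 21.3%.

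By limma on log2(FPKM + 1), with Benjamini-Hochberg adjustment over the 13553 genes and a threshold of 0.05, 6499 genes (48.0%) passed, of which 3022 rose (22.3%) and 3477 fell (25.7%). The log2 changes given below are on this scale, which understates changes of genes with low FPKM. With each library rescaled to the same sum, as in TPM, 2320 rose and 4142 fell. A change of at least 2-fold on this scale was reached by 452 rising genes (3.34%) and 243 falling genes (1.79%), and the median change over all genes was -0.018. The 3 untreated and 3 treated libraries did not overlap for 69.2% of genes (32.4% higher and 36.8% lower after treatment). A gene under FPKM 1 in all untreated libraries entered only through the treated ones, so the level filter fixed its direction and lack of overlap. The reverse holds for a gene under FPKM 1 in all treated libraries. List counts below include such genes. The shares of all genes that rose and fell are the background for the counts of list members that follow.

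**Figure D1:**
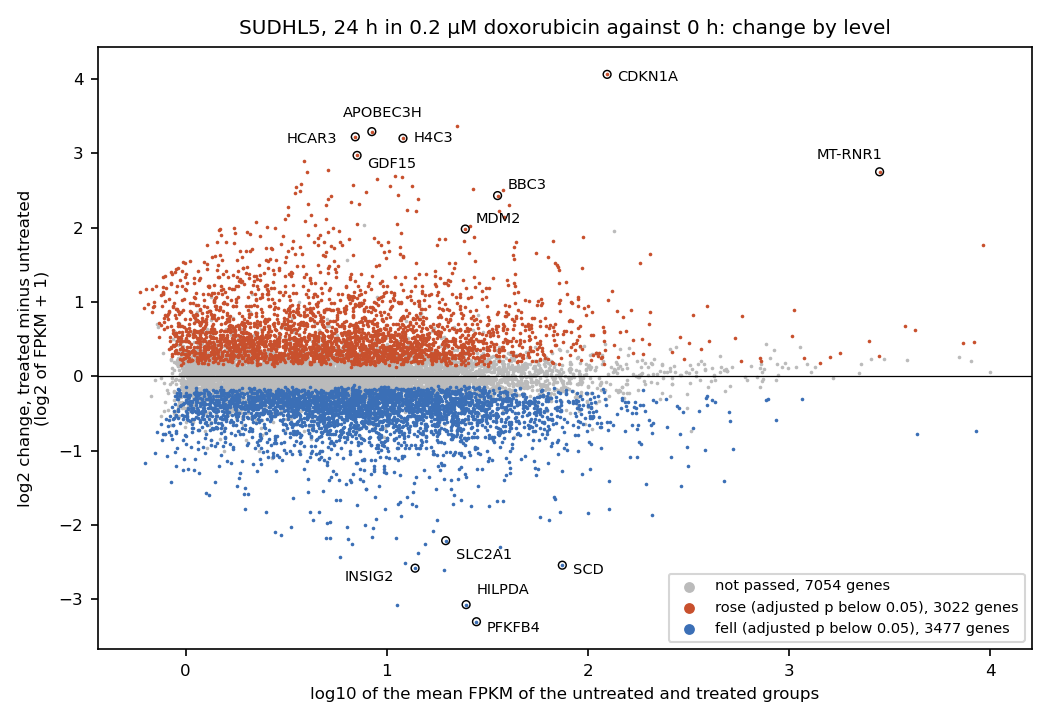
Log2 change of each of the 13553 genes in SUDHL5 (y axis, treated minus untreated, log2 of FPKM + 1) against the log10 of its mean FPKM over both groups (x axis). Each point is a gene, coloured by whether it rose (3022), fell (3477) or did not pass; CDKN1A lies at the top with 4.06 and PFKFB4 at the bottom with -3.30.

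The libraries held 17849508 to 28327767 reads, the lowest in treated replicate 3. B cell identity was checked by 8 lineage markers, all at FPKM 1 or more in all 6 libraries, as were 6 of 6 germinal center markers. Mitochondrial genes took 6.05 to 6.35% of reads in untreated and 9.2 to 9.88% in treated libraries. Of 14 T and NK cell markers, 8 stayed under 1 FPKM in all 6 libraries, 2 of them at 0, and the summed level was 55.2 to 59.7 FPKM untreated and 51.3 to 56.4 treated. Most of this sum was TRBC2, at 50.5 to 54.4 FPKM untreated and 32.8 to 38 treated. CD3D, CD3E, CD3G and PRF1 were each higher in all treated libraries. The 12 myeloid markers summed to 0.719 to 0.854 FPKM untreated and 5.54 to 6.57 treated, with 2 at 0 throughout, and the 13 stromal, epithelial and endothelial markers to 8.81 to 8.99 and 15.7 to 16.6, with 3 at 0. The part of the mitochondrial share and of these markers in the results was not tested. In bulk RNA, fewer cells of a type and less RNA per cell cannot be told apart. The SUDHL5 replicates, called independent experiments in the labels, differed by more than sampling noise (chi-square per gene 1.98 to 5.69) but by less than replicates of the other lines (8.72 to 39.3). The spread was therefore shared over the 24 libraries of the 4 lines.

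Within the p53 pathway, MDM2, the ubiquitin ligase that degrades p53, stood at 9.36, 8.99 and 9.65 FPKM untreated and 40.1, 39.9 and 39.6 treated. All treated libraries lay above all untreated ones, and the change was 1.98 (SE 0.098, adjusted p = 5.9e-12). Of 8 genes of the p53 feedback loop, 4 rose and 1 fell, with a median change of 0.31. The other risers were PPM1D, a phosphatase that turns off p53 and ATM (4.43 to 15.3 FPKM), TP53INP1, a p53-induced nuclear protein (20.2 to 64.5), and CCNG1, cyclin G1 (56 to 84). RCHY1, another p53 ubiquitin ligase, fell by 0.32 (adjusted p = 0.000184).

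Of 33 p53 target genes outside apoptosis and feedback, 25 passed the level filter and 8 stayed under FPKM 1 in all 6 libraries. Of the 25, 22 rose and 0 fell, against 22.3% rising among all genes, and their median change was 1.37. CDKN1A (chr6:36676460-36687339, plus strand) stood at 13.6, 12.8 and 13.2 FPKM untreated and 228, 243 and 236 treated. The ranges were far apart, and the change was 4.06 (SE 0.16, adjusted p = 2.82e-13). GDF15, a secreted stress cytokine, was at 0.874, 0.776 and 0.845 FPKM untreated and at 12.9, 13.8 and 13.4 treated. The log2 change was 2.97 (SE 0.14, adjusted p = 2.54e-12). GDF15 passed the level filter through the treated libraries alone and so had to be higher there. The count of 22 includes it, and also TIGAR and ACER2, with untreated means of 0.449 and 0.399 FPKM. TP53I3, a quinone oxidoreductase, was at 4.44, 4.15 and 4.26 FPKM untreated and at 25.1, 22.9 and 22.9 treated, a change of 2.22 (SE 0.13, adjusted p = 1.03e-10) with no overlap.

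Autophagy, DNA repair and metabolic targets rose as well. DRAM1, a lysosomal membrane protein that takes part in autophagy, went from 1.23 to 12.3 FPKM and TRIM22, an antiviral ubiquitin ligase, from 10.7 to 64.7. XPC and DDB2, which recognize DNA lesions for nucleotide excision repair, went from 29 to 105 and from 14.8 to 35 FPKM. FDXR, ferredoxin reductase of mitochondria, went from 12 to 60 FPKM, and TIGAR, which lowers glycolytic flux, from 0.449 to 2.14. RRM2B, the p53-inducible ribonucleotide reductase subunit, did not pass: it stood at 36.6, 34.2 and 34.6 FPKM untreated and 39.6, 40.2 and 39.6 treated (log2 change 0.18, SE 0.13, adjusted p = 0.288). Its groups did not overlap, and it passed in the fit on the SUDHL5 libraries alone (adjusted p = 0.00306). CD82 and SAT1, the other targets that did not pass, changed by 0.15 and -0.15.

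**Figure D2:**
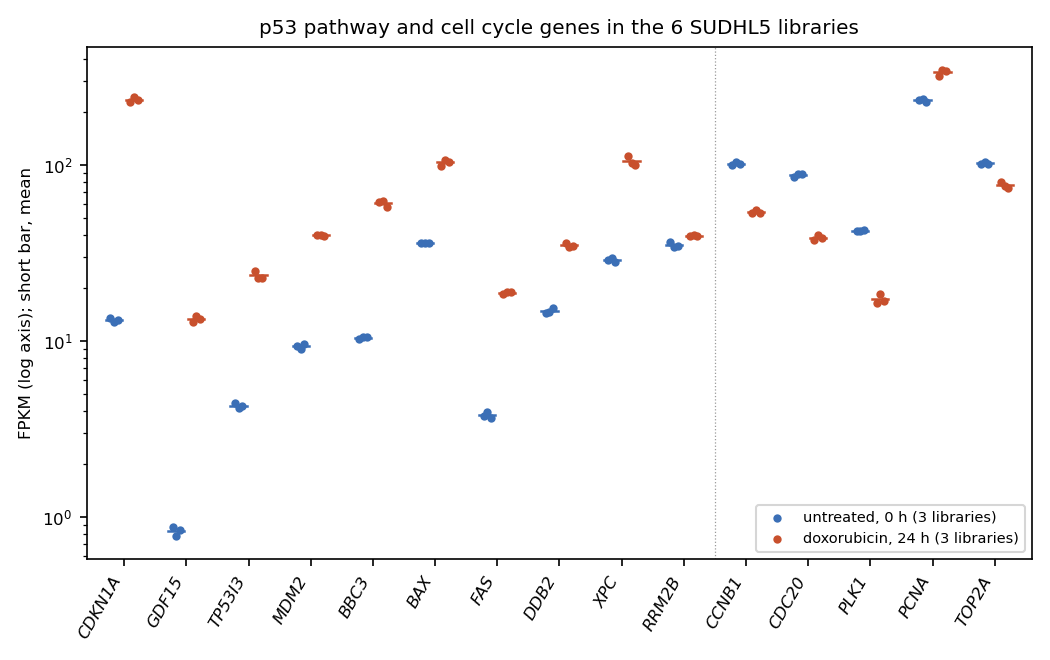
FPKM (log axis) of p53 pathway genes and, right of the dotted line, cell cycle genes in each of the 3 untreated (blue) and 3 treated (orange) SUDHL5 libraries; points are libraries and short bars the means. CDKN1A moves from about 13.2 to 236 FPKM, and CCNB1, CDC20 and PLK1 lie lower in all treated libraries.

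Among 12 pro-apoptotic BCL2 family and apoptosome genes, 9 rose and 0 fell (median 0.48). BBC3, which encodes the BH3-only protein PUMA, was at 10.3, 10.5 and 10.5 FPKM untreated and at 62.1, 62.6 and 57.6 treated. The groups were separate, with a change of 2.43 (SE 0.11, adjusted p = 1.5e-12). BAX, the pore-forming effector, went from 36.2, 36.2 and 36 FPKM to 99.4, 107 and 105, a change of 1.49 (SE 0.11, adjusted p = 1.32e-09). BCL2L11, which encodes the BH3-only protein BIM, rose by 0.74. PMAIP1, which encodes NOXA, rose by 0.46 with an adjusted p of 0.0336, which became 0.121 without untreated replicate 2 and 0.082 after rescaling to TPM.

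Of 11 death receptor pathway genes tested, 5 rose and 0 fell (median 0.21). FAS, the receptor for FAS ligand, stood at 3.73, 3.96 and 3.64 FPKM untreated and 18.6, 19.1 and 18.9 treated, without overlap (log2 change 2.05, SE 0.075, adjusted p = 1.35e-13). TNFRSF10B, a TRAIL receptor, rose by 1.29 and TNFRSF1A, a TNF receptor, by 0.97. Survival genes also moved upward: of 7 anti-apoptotic BCL2 family and inhibitor of apoptosis genes, 4 rose and 1 fell. BCL2A1 went from 3.23, 3.83 and 3.38 FPKM to 14.8, 13.4 and 16, a change of 1.81 (SE 0.15, adjusted p = 1.17e-08), with all treated libraries higher. MCL1, a BCL2 relative with the highest FPKM of the list, went from 170 to 231 FPKM (log2 change 0.44), and BIRC2, a ubiquitin ligase of the TNF receptor complex, from 33.9 to 58.9. BCL2 itself stayed below the level filter at 0.307 and 0.253 FPKM.

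Mitotic genes fell almost without exception. Of 29 tested, 28 fell and 0 rose, against 25.7% falling among all genes, with a median of -0.71. PLK1, a mitotic kinase, was at 42.4, 42.2 and 42.8 FPKM untreated and at 16.5, 18.4 and 16.8 treated. No library overlapped, and the change was -1.25 (SE 0.21, adjusted p = 7.79e-05). CDC20, an activator of the anaphase-promoting complex, changed by -1.16, and CCNB1, cyclin B1, by -0.91. KIF20A, a kinesin of cytokinesis, changed by -1.26 and CCNA2, cyclin A2, by -1.23.

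Of 33 genes of DNA replication and nucleotide supply, 21 fell and 2 rose (median -0.43). GINS2, a subunit of the replicative helicase complex, fell by 1.06 on the log2 scale and MCM6 and MCM2, subunits of its motor, by 0.91 and 0.83. PCNA, the sliding clamp, also a p53 target, went the other way: 234, 237 and 230 FPKM untreated and 324, 347 and 344 treated (log2 change 0.53, SE 0.089, adjusted p = 6.4e-05), with all treated libraries higher. GINS4 was the other riser, with 0.46.

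Of 30 double-strand break repair and checkpoint genes, 18 fell and 1 rose (median -0.31). CHEK1, the checkpoint kinase of replication stress, fell by 0.58, RAD54L, a recombination translocase, by 0.61 and MDC1, a mediator at breaks, by 0.62. RAD51C was the riser (0.47). TOP2A, the proliferation-linked target of doxorubicin, was at 101, 105 and 102 FPKM untreated and at 80.6, 76.6 and 74.6 treated. The groups did not overlap, but the test was missed narrowly (log2 change -0.40, SE 0.17, adjusted p = 0.0542), and it was passed in 6 alternative fits. TOP2B fell from 135, 133 and 137 FPKM to 97.7, 88.1 and 90, a change of -0.55 (SE 0.11, adjusted p = 0.000375). TOP1 rose by 0.61, and TDP1 and TDP2, which free topoisomerases from DNA, changed by -0.52 and 0.32.

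Of 18 CDK inhibitors, G1 cyclins, RB and E2F genes 4 rose, near the 22.3% of all genes, and 7 fell, where 25.7% of all genes did. CDKN1B, which encodes p27, fell from 32.1, 28 and 28.4 FPKM to 14.6, 13.7 and 13.2 (log2 change -1.04, SE 0.16, adjusted p = 1.8e-05), in contrast to CDKN1A. CDK6 fell by 0.67 and CDKN2D, which encodes p19, by 0.78. CDKN2B, which encodes p15, rose from 0.56, 0.607 and 0.677 FPKM to 1.63, 1.75 and 1.69, a low level, in a direction fixed by the level filter. MYC fell from 23.3, 23.5 and 21.5 FPKM to 12.5, 14 and 13.9 (log2 change -0.72, SE 0.18, adjusted p = 0.00209). Of 25 MYC network and ribosome biogenesis genes, 10 fell and 3 rose (median -0.22). MXI1, a MYC antagonist that also responds to hypoxia, fell by 2.02, whereas MXD4, another antagonist, rose by 1.45.

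Hypoxia-responsive genes showed the lowest median of all lists, -1.62. Of 13 tested, 12 fell and 1 rose. CA9, carbonic anhydrase 9, was at 10.9, 11.8 and 10.8 FPKM untreated and at 1.67, 1.64 and 1.71 treated. The treated libraries were all far lower, and the change was -2.19 (SE 0.18, adjusted p = 1.01e-08). ADM, the vasodilator adrenomedullin, fell from 12.3, 10.9 and 12.1 FPKM to 1.67, 1.63 and 1.76 without overlap (-2.25, SE 0.10, adjusted p = 2.56e-12). P4HA1, a collagen prolyl hydroxylase, went from 61.7 to 11.8 FPKM, BNIP3, a mitophagy receptor, from 102 to 26.2, and VEGFA, the angiogenic growth factor, from 19.6 to 5.69. PDK1, a kinase that inhibits pyruvate dehydrogenase, went from 9.69 to 2.91, and EGLN1, the oxygen-sensing prolyl hydroxylase of HIF-1 alpha, from 7.66 to 1.98. HIF1A was the riser: 33, 31.8 and 33.2 FPKM untreated and 62, 58 and 61.5 treated (log2 change 0.87, SE 0.078, adjusted p = 2.6e-08).

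Glycolysis fell with them. Of 23 genes tested, 22 fell and 0 rose, and the median was -0.91. SLC2A1, the GLUT1 glucose transporter that both lists hold, was at 33.1, 32.4 and 33.1 FPKM untreated and at 5.8, 6.55 and 6.7 treated, a change of -2.21 (SE 0.11, adjusted p = 6.83e-12). LDHA went from 442 ± 9.12 to 190 ± 2.96 FPKM (SD, n = 3; log2 change -1.21, SE 0.13, adjusted p = 1.82e-07). HK2, hexokinase 2, went from 34.2, 33.3 and 32 FPKM to 12.1, 12.1 and 12.2. In each of these genes the treated libraries were all below the untreated ones. PFKFB4 (chr3:48517684-48562015, minus strand) fell from 52.5, 49.7 and 52.2 FPKM to 4.16, 4.49 and 4.39 (-3.30, SE 0.33, adjusted p = 1.39e-07), and PFKFB3, its paralog, fell by 0.64. Other large falls outside these lists were those of HILPDA, a hypoxia-inducible lipid droplet protein (48.1, 43.1 and 44.1 FPKM to 4.62, 4.55 and 4.33), and BHLHE40, a hypoxia- and clock-linked repressor (27.9, 27.5 and 24 FPKM to 5.13, 4.67 and 4.37). All treated libraries of both genes were below the untreated ones.

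Nuclear genes of mitochondrial metabolism fell less. Of 20 tricarboxylic acid cycle genes 9 fell and 0 rose (median -0.16), and of 24 nuclear respiratory chain genes 10 fell and 0 rose (median -0.21), with 1 rise without treated replicate 1. IDH1 fell by 0.67, FH, fumarate hydratase, by 0.66 and UQCRC1, a complex III core protein, by 0.69. IDH2 stood at 16.6, 15.5 and 14.9 FPKM untreated and 20.3, 22.7 and 20.5 treated, higher in all treated libraries, with an adjusted p of 0.0556 (log2 change 0.41, SE 0.17), and 0.000678 in SUDHL5 alone. Mitochondrially encoded mRNAs moved upward: 6 of 13 rose and 0 fell (median 0.27), among them MT-ND1 (0.68) and MT-CYB (0.62). After quantile normalization 0 rose and 1 fell. MT-RNR1, the 12S ribosomal RNA of mitochondria, stood at 709, 689 and 796 FPKM untreated and 4833, 4796 and 5103 treated (log2 change 2.75, SE 0.16, adjusted p = 5.15e-11). Mitochondrial ribosomal RNA took 0.702 to 0.736% of reads untreated and 2.58 to 2.74% treated, in libraries made from poly(A)-selected RNA.

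Most cholesterol synthesis genes fell. Of 21 cholesterol synthesis genes 17 fell and 1 rose, with a median of -0.89. INSIG1, a sterol-sensing anchor of SREBP, was at 105, 102 and 103 FPKM untreated and at 32.6, 33.2 and 33 treated. The groups were separate (log2 change -1.62, SE 0.20, adjusted p = 2.05e-06). LSS, lanosterol synthase, fell by 1.33, DHCR7, the last enzyme of one route to cholesterol, by 1.29, and HMGCS1, an enzyme early in the pathway, by 1.23. SREBF1 fell by 1.12 and SREBF2 did not pass (-0.02, adjusted p = 0.827). TM7SF2, a sterol reductase, rose by 0.85. SCD, stearoyl-CoA desaturase, which lies outside the list, fell from 127, 128 and 129 FPKM to 20.3, 21.6 and 21.7 (-2.54, SE 0.18, adjusted p = 6.77e-10), and INSIG2 from 25.5, 23 and 24.7 to 3.05, 3.35 and 3.35 (-2.58, SE 0.15, adjusted p = 5.58e-11). Both were lower in all treated libraries.

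**Figure D3:**
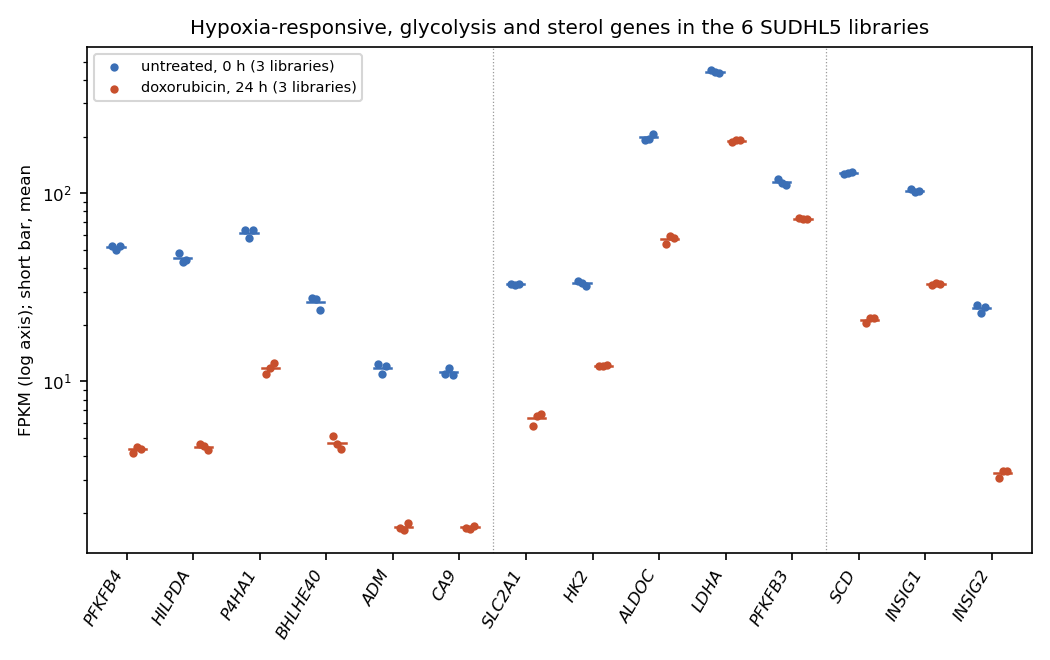
FPKM (log axis) of hypoxia-responsive, glycolysis and sterol or fatty acid genes, separated by dotted lines, in the 3 untreated (blue) and 3 treated (orange) SUDHL5 libraries; points are libraries and short bars the means. Every gene drawn is lower in all 3 treated libraries, from 51.5 to 4.34 FPKM in PFKFB4 and from 128 to 21.2 in SCD.

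B cell genes rose. Of 24 B cell receptor and lineage genes tested, 15 rose and 0 fell (median 0.40). MS4A1, which encodes CD20, was at 43.8, 44.4 and 46.5 FPKM untreated and at 112, 106 and 110 treated. All treated libraries were higher, with a change of 1.27 (SE 0.14, adjusted p = 4.42e-07). CD72, an inhibitory co-receptor, rose by 1.53, POU2F2, the OCT2 transcription factor, by 0.98 and SPI1, which encodes PU.1, by 0.94. CD22, another inhibitory co-receptor, rose by 0.40 (adjusted p = 0.027, and 0.0977 after rescaling to TPM). CD79A, a signalling chain of the receptor, was at 696 and 689 FPKM and did not pass (-0.02, adjusted p = 0.906).

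Of 20 germinal center genes 4 rose and 5 fell, near the shares of all genes (22.3% and 25.7%). BCL6, the master repressor of germinal center B cells, fell from 104, 103 and 100 FPKM to 77.8, 73.5 and 77 (-0.42, SE 0.12, adjusted p = 0.00588), with all treated libraries lower. SERPINA9, a germinal center marker, rose by 0.94 and LMO2, a transcription cofactor, by 1.49, whereas NEIL1, a DNA glycosylase, fell by 1.31. Among 11 activated B cell and plasmablast genes 5 rose and 4 fell. PRDM1, the plasma cell regulator BLIMP-1, rose from 0.113, 0.0971 and 0.134 FPKM to 1.34, 1.47 and 1.48, still a low level. The level filter fixed its direction. JCHAIN, the antibody joining chain, rose from 82.7 to 169 FPKM, while MZB1, a plasma cell chaperone, fell by 0.43.

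Antigen presentation rose. All 13 MHC class II genes tested rose, with changes from 0.65 to 1.19 and a median of 0.90. CIITA, the transactivator of the class, was at 4.24, 4.26 and 4.45 FPKM untreated and at 10.5, 10.3 and 10.3 treated. No library overlapped (log2 change 1.09, SE 0.094, adjusted p = 1.42e-08). HLA-DRA went from 422 to 742 FPKM and CD74, the invariant chain, rose by 0.89. Of 15 MHC class I genes 13 rose and 0 fell (median 0.48). TAP1, a peptide transporter subunit, rose by 1.62 and HLA-C by 1.01. HLA genes share sequence, so reads may pass between them. Of 18 interferon-stimulated genes 15 rose and 1 fell (median 0.46). IRF1 rose from 5.75 to 13.3 FPKM, ISG15 from 16.7 to 35.8 and IFI35 from 3.38 to 9.81; ISG20, an exonuclease, fell from 6.12 to 3.07. A further 12 of the 30 listed stayed below the filter.

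NF-kB genes moved in part. NFKB2, the precursor of the non-canonical subunit p52, was at 56.4, 58.7 and 57.1 FPKM untreated and at 67.8, 66.3 and 62.8 treated. The treated libraries were higher, but the change of 0.19 (SE 0.14) did not pass (adjusted p = 0.275, and 0.00291 in the fit on the SUDHL5 libraries alone). RELB, its partner, changed by 0.33 with an adjusted p of 0.0481, which was 0.165 after rescaling to TPM and 0.0647 to 0.109 with 1 replicate left out. BIRC3, a ligase that restrains the pathway, changed by 0.099 (adjusted p = 0.681, and 0.0286 in SUDHL5 alone). MAP3K14, the NIK kinase, rose from 5.78, 6.11 and 5.79 FPKM to 11.1, 10.1 and 10.3 (0.74, SE 0.13, adjusted p = 0.000102). Of 13 non-canonical genes 5 rose and 0 fell (median 0.20), while 3 rose after rescaling to TPM and 3 without treated replicate 2. Of 22 canonical components 7 rose (31.8%) and 3 fell (13.6%), with a median of 0.09, where 22.3% and 25.7% of all genes did. Among them, NFKBIZ and CYLD rose by 1.06 and 1.05. TNFAIP3, the A20 feedback inhibitor, fell from 7.45, 8.38 and 7.32 FPKM to 4.27, 3.89 and 4.06 (-0.78, SE 0.12, adjusted p = 1.81e-05). Without untreated replicate 3, 1 canonical component fell. Of 16 targets 8 rose and 2 fell (median 0.41), with CCR7, a lymph node homing receptor, at 2.49 and CD83 at 1.60. The risers include CCR7 and EBI3, which passed the level filter through the treated libraries alone and so had to be higher there.

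**Figure D4:**
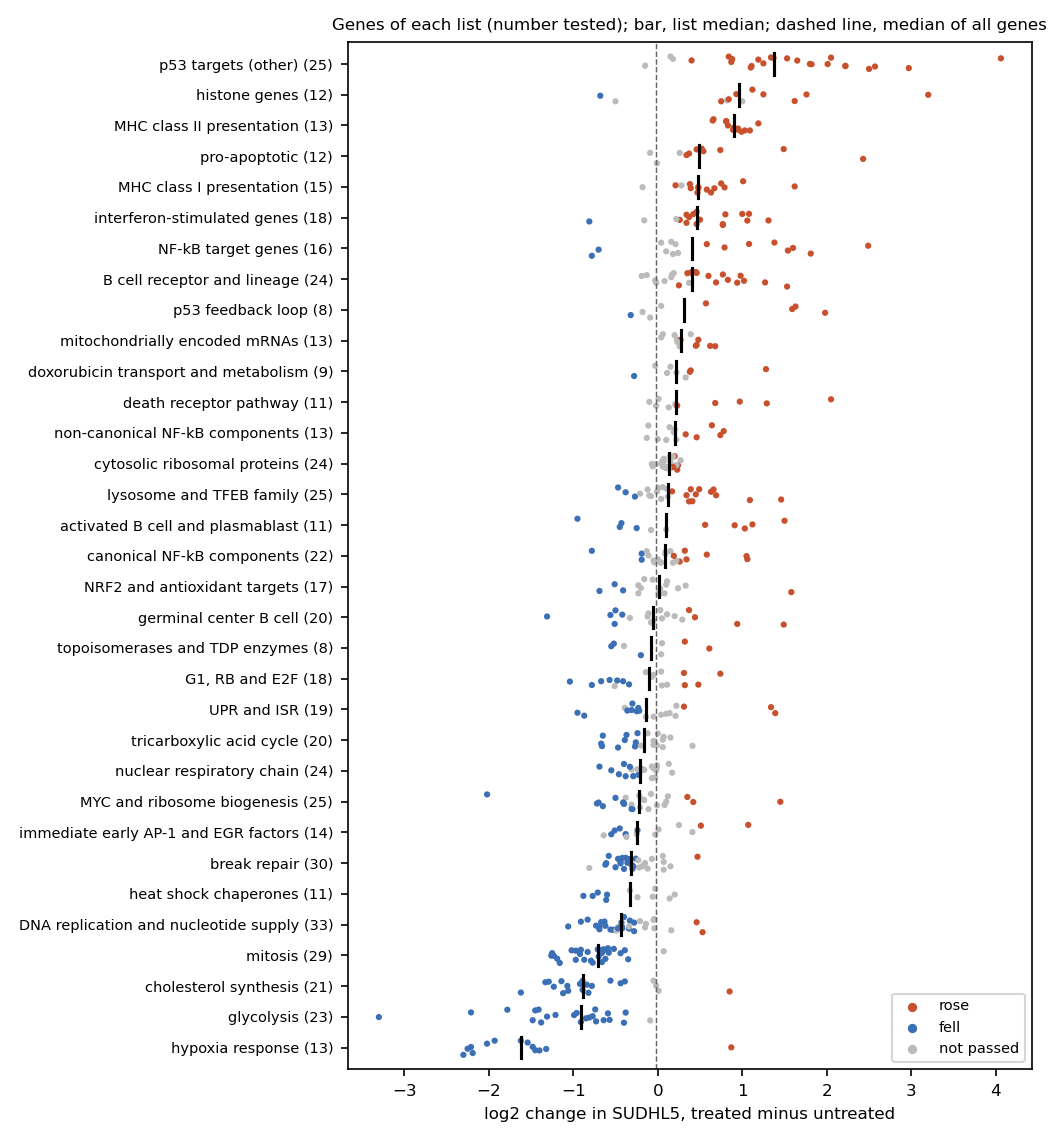
Log2 change in SUDHL5 (x axis, treated minus untreated) of the tested genes of each list with at least 8 genes tested (y axis, with the number tested); points are genes, coloured by rose, fell or not passed, black bars are list medians and the dashed line is the median of all genes, -0.018. Of the lists drawn, the p53 targets lie furthest right (median 1.37) and the hypoxia genes furthest left (median -1.62).

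The counts of the remaining lists stand against 22.3% rising and 25.7% falling among all genes. Lysosome genes rose in 12 of 25 and fell in 3, with CTSZ, a cathepsin, from 49.3 to 137 FPKM. Heat shock chaperones fell in 5 of 11 (median -0.33), with HSPD1, HSP60 of mitochondria, at -0.88. Of 19 genes of the unfolded protein and integrated stress responses, 3 rose and 8 fell; ATF3 and SESN2, of which SESN2 is also in the p53 list, rose by 1.39 and 1.34, and DDIT4, an mTOR inhibitor, fell from 415, 417 and 403 FPKM to 209, 215 and 215. The falls of this list numbered 5 without untreated replicate 2, 5 without treated replicate 3 and 5 after quantile normalization. NRF2 and antioxidant targets fell in 3 of 17 (17.6%) and rose in 1 (5.88%), both below the shares of all genes. The riser was GPX1, glutathione peroxidase 1 (1.58). Of 14 immediate early genes 2 rose and 5 fell, the falls being 2 without untreated replicate 3 and 3 without untreated replicate 1, treated replicate 1 or treated replicate 3. Of 24 ribosomal protein genes 4 rose and 0 fell (median 0.14), a count that was 0 after rescaling to TPM, 10 after quantile normalization with 2 falling, and 1 to 2 with 1 replicate left out. Of 12 histone genes 8 rose and 1 fell (median 0.96), counts that rest on poly(A)-selected RNA and near-identical genes; 5 rose after rescaling to TPM. H4C3 was at 1.13, 0.952 and 2.94 FPKM untreated and at 24.1, 23.4 and 19.8 treated, and H2AZ1, a variant made outside S phase too, fell by 0.68. Of 9 genes of doxorubicin transport and metabolism 3 rose and 1 fell; MVP, the major vault protein, rose by 1.28, while 10 of the 19 listed stayed below the filter. No fall passed in that list without untreated replicate 1, untreated replicate 2 or treated replicate 1, with no filter, or with median-of-ratios scaling.

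Rises were also seen in genes of no list or of other lineages. APOBEC3H, a cytidine deaminase of antiviral defence, was at 0.729, 0.801 and 0.721 FPKM untreated and at 14.9, 15.9 and 17.6 treated, without overlap (3.29, SE 0.14, adjusted p = 8.96e-13). HCAR3, a receptor for hydroxylated fatty acids, was at 0.462, 0.675 and 0.499 FPKM untreated and at 12.8, 13.4 and 13.9 treated (3.22, SE 0.18, adjusted p = 2.71e-11). APOBEC3H and HCAR3 were under FPKM 1 in all untreated libraries, so the level filter fixed their direction and lack of overlap. CAMP, the cathelicidin antimicrobial peptide, rose by 2.68 and ACTA2, a smooth muscle actin, by 2.65. CD3D, CD3E and CD3G, which encode the CD3 chains of the T cell receptor complex, rose by 1.88, 1.48 and 1.23, and all treated libraries of each gene were above its untreated ones. For CD3D and CD3G, under FPKM 1 in all untreated libraries, that order was fixed by the level filter. TRBC2, a constant segment of the receptor itself, fell by 0.56. LYZ and ITGAM, myeloid genes, rose to 3.44 to 4.34 and 1.47 to 1.8 FPKM. These 2 genes also passed the level filter through the treated libraries alone.

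The response of SUDHL5 was tested against that of each other line. It differed from OCI-LY19 for 6308 genes (46.5%), from HT for 5994 (44.2%), from OCI-LY3 for 7666 (56.6%) and from the mean of the 3 for 6950 (51.3%). Against OCI-LY19, the p53 response was smaller for many genes: 15 of 25 p53 targets had a lower response in SUDHL5 and 3 a higher one, against 26.4% lower and 20.1% higher among all genes. The median of the list was 1.37 in SUDHL5, 2.45 in OCI-LY19, 0.17 in HT and 0.30 in OCI-LY3. MDM2 rose by 1.98 in SUDHL5 and 3.77 in OCI-LY19, a difference of -1.78 (SE 0.14, adjusted p = 8.11e-09), and TP53I3 by 2.22 and 4.57, a difference of -2.35 (SE 0.19, adjusted p = 1.52e-08). RRM2B changed by 0.18 and 2.95 (difference -2.77, SE 0.19, adjusted p = 1.31e-09). For CDKN1A the changes of 4.06 and 4.41 did not pass as different (-0.35, SE 0.23, adjusted p = 0.218). With the replicate number as a block in the fit, that adjusted p was 0.049. Against HT, 20 of 25 targets had a higher response in SUDHL5, where 16.7% of all genes were higher, and against the mean of the 3 lines 16 had a higher and 5 a lower one, where 17.7% were higher and 33.6% lower. The median change of all genes was -0.018 in SUDHL5, 0.05 in OCI-LY19, 0.07 in HT and 0.17 in OCI-LY3. Library names of the other lines carry a prefix that those of SUDHL5 lack, and the labels do not say what it marks. In comparisons of SUDHL5 with other lines, the line and whatever the prefix marks cannot be told apart.

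Hypoxia, glycolysis and cholesterol synthesis genes were compared in the same way. Of the 13 hypoxia genes, the response was lower than in OCI-LY19 for 11, and lower than in HT and in OCI-LY3 for 12 each, where 26.4%, 27.5% and 38.6% of all genes were lower. Their median was -1.62 in SUDHL5, 0.42 in OCI-LY19, 0.92 in HT and 0.56 in OCI-LY3. Of 23 glycolysis genes 12 were lower than in OCI-LY19, 22 than in HT and 20 than in OCI-LY3, with medians of -0.91 in SUDHL5, -0.52 in OCI-LY19, 0.64 in HT and 0.16 in OCI-LY3. LDHA fell less in SUDHL5 than in OCI-LY19 (-1.21 and -1.98, difference 0.77, SE 0.18, adjusted p = 0.00149). Of 21 cholesterol synthesis genes 14, 19 and 17 were lower in the same order of lines, and their median was -0.89 in SUDHL5 against -0.06, 0.78 and 0.15. SCD fell by 2.54 in SUDHL5 and rose by 1.25 in HT, a difference of -3.78 (SE 0.25, adjusted p = 8.54e-10). The untreated level of PFKFB4 was 51.5 FPKM in SUDHL5 and 1.96, 2.62 and 0.646 FPKM in OCI-LY19, HT and OCI-LY3, which gives the level that this fall began from.

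Most MHC class II and B cell genes had a higher response in SUDHL5 than in the mean of the other lines. Of 13 class II genes, 12 had a higher response than the mean of the 3 lines, where 17.7% of all genes did. The response was higher than in OCI-LY19 for 7 and than in HT for 7, where 20.1% and 16.7% of all genes were higher. Their median was 0.90 in SUDHL5, 0.47 in OCI-LY19, 0.32 in HT and -0.32 in OCI-LY3. Of 24 B cell genes, 18 had a higher response than the mean, 13 than OCI-LY19 and 17 than HT. The shares of all genes were 17.7%, 20.1% and 16.7%. The median of the B cell genes was 0.40 in SUDHL5 against 0.21, -0.24 and -0.49 in OCI-LY19, HT and OCI-LY3. NFKB2 went the other way: it changed by 0.19 in SUDHL5 against a mean of 1.52 in the other lines, a difference of -1.33 (SE 0.16, adjusted p = 1.54e-06). TNFAIP3 fell by 0.78 against a mean rise of 1.26 (difference -2.04, SE 0.13, adjusted p = 7.05e-10). As a list, 13 non-canonical NF-kB genes held 2 with a higher and 3 with a lower response than the mean. The counts were 3 and 7 of 22 canonical components and 6 and 7 of 16 targets. Among all genes, 17.7% were higher and 33.6% lower. Of 29 mitotic genes, 22 had a lower response than in OCI-LY3, 15 a lower one than in HT and 14 a higher one than in OCI-LY19. The shares of all genes were 38.6%, 27.5% and 20.1%. Against the mean of the 3 lines 11 mitotic genes were lower and 0 higher, where 33.6% and 17.7% of all genes were.

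**Figure D5:**
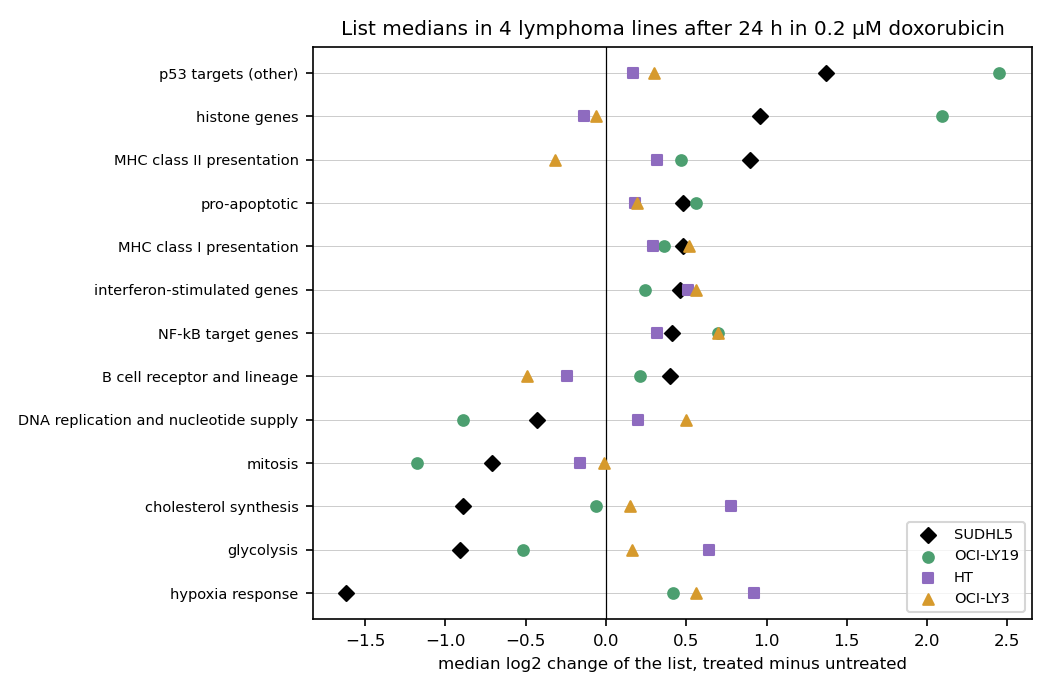
Median log2 change after 24 h in 0.2 µM doxorubicin (x axis) of gene lists with at least 8 genes tested whose SUDHL5 median is at least 0.4 in size (y axis), in SUDHL5 (diamonds), OCI-LY19 (circles), HT (squares) and OCI-LY3 (triangles). The hypoxia median is -1.62 in SUDHL5 and between 0.42 and 0.92 in the other lines, and the p53 target median is 1.37 in SUDHL5 and 2.45 in OCI-LY19.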

How the data were processed

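RNA was measured in 24 libraries of 4 lymphoma lines, of which the 6 of SUDHL5 are described. Per the labels, poly(A) RNA was made into strand-specific libraries and sequenced on a NextSeq 500. The submitters' processing notes name Trimmomatic, STAR, featureCounts and hg38 and give no versions; annotation release and strand setting: not given in the sources used here. FPKM values, which are reads scaled by gene length and library total, were deposited by the authors in 1 table for these lines. With GENCODE 29 exon lengths, the values of 24743 genes were whole multiples of 1 read (100.0% within 0.01 read), and for 18975 more the length was solved from the values; these reads gave the depths and an added alternative (voom). Genes that share sequence or overlap can exchange reads.

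The log2(FPKM + 1) values of 8 groups of 3 libraries were fitted with limma 3.58.1 in R 4.3.3 (lmFit and a trended eBayes, two-sided, 16 residual degrees of freedom), with Benjamini-Hochberg adjustment and a threshold of 0.05. Differences of response were contrasts of the same fit. Replicates may share a culture history, so p-values measure the spread between these samples. That spread was pooled over the 24 libraries, and replicates of the other lines differed more than those of SUDHL5. Genes named are the 15 largest rises and falls with no overlap and at least 10 FPKM in the higher group (symbols of clones, pseudogenes and most non-coding RNAs left out), a list of key genes, up to 3 rises and 3 falls per list, and the 5 largest differences of response in each direction; some further list members are given as examples, chosen after their values were seen. The gene lists and members were chosen with earlier results of these data known. Alternatives included a pseudocount of 0.1, other minimum levels, other scalings and leaving out each replicate. The resistant derivative of OCI-LY19 is in a separate table and was not used here. Some key genes are not reported here.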

Additional observations from a re-analysis of the deposited data

Results flagged for a closer look

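Each result here is a difference between the response of SUDHL5 and that of another line (log2 change in SUDHL5 minus log2 change in the other), tested as a contrast in limma with Benjamini-Hochberg adjustment over 13553 genes. Such a difference passed for 51.3% of genes against the mean of the other lines.

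Against the mean of OCI-LY19, HT and OCI-LY3, the 5 largest positive differences were in MT-RNR1 (3.47, adjusted p = 4.45e-11), CAMP (2.76, adjusted p = 1.41e-09), HCAR3 (2.68, adjusted p = 5.06e-09), FCRLB (2.46, adjusted p = 1.25e-09) and H4C3 (2.43, adjusted p = 0.00293). MT-RNR1 rose by 2.75 in SUDHL5 and changed by a mean of -0.72 in the others. The 5 largest negative differences were in PFKFB4 (-5.87, adjusted p = 6.53e-10), HILPDA (-3.85, adjusted p = 4.94e-11), BHLHE40 (-3.65, adjusted p = 5.38e-11), HES6 (-3.45, adjusted p = 1.2e-06) and P4HA1 (-3.27, adjusted p = 2.54e-11). HES6, a HES family transcription factor, fell by 1.74 in SUDHL5 and rose by a mean of 1.70 in the others.

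Among NF-kB, B cell and glucose uptake genes set against the same mean, the differences were -1.33 for NFKB2, -1.13 for RELB, -1.21 for BIRC3, 0.36 for MAP3K14, -2.04 for TNFAIP3, 1.22 for MS4A1, 0.92 for CIITA and -2.11 for SLC2A1. That of MAP3K14 had an adjusted p of 0.049, which lay between 0.0657 and 0.119 with 1 SUDHL5 replicate left out.

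Against OCI-LY19 alone, the differences were -1.78 for MDM2, -2.35 for TP53I3, -0.79 for BBC3, 0.39 for BAX, -0.45 for FAS, -2.77 for RRM2B and 0.77 for LDHA. That of BAX had an adjusted p of 0.0442, which was 0.341 after quantile normalization. Against HT, they were -3.78 for SCD and -2.85 for INSIG1 (adjusted p = 1.99e-07).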

How the results depend on the processing

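Of 3159 values of named genes under 17 alternatives, 3038 kept their direction and their side of the threshold, 102 no longer passed, 19 newly passed and 0 reversed. The 6499 genes that passed (3022 rose, 3477 fell) became 4174 (1764 rose, 2410 fell) with a minimum FPKM of 5, where 7766 genes were tested; the genes whose response differed were then 3917 against OCI-LY19, 3819 against HT, 4657 against OCI-LY3 and 4202 against the mean. With 1 SUDHL5 replicate left out, 5655 to 5815 genes passed (2627 to 2703 rose, 2965 to 3114 fell), and 5704 to 5928, 5391 to 5496, 7217 to 7310 and 6182 to 6329 differed against the same lines and mean; where a group then held 2 libraries, the spread came from all groups. On recovered reads with voom, an alternative chosen after seeing the data, 2885 rose and 3309 fell. Replicate numbers did not pair the SUDHL5 samples: deviations of same-numbered libraries correlated at 0.03, -0.01 and 0.02. In the other lines, most same-numbered libraries share a name prefix at 0 h and 24 h, and pairing there was not tested. With the number as a replicate block 3273 rose and 3778 fell, and the difference of CDKN1A against OCI-LY19 had an adjusted p of 0.049; in SUDHL5 alone with the block 3872 rose and 4396 fell. Without the other lines in the fit, 3997 rose and 4534 fell. The lowest library, treated replicate 3, held 17849508 reads, and genes below the filter were not tested.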

Other observations

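Families chosen after their values were seen are given as counts and values only. Among the FCRL family, Fc receptor-like molecules of B cells, FCRL3 rose from 2.85 ± 0.455 to 19.8 ± 0.792 FPKM (SD, n = 3), FCRL5 from 4.07 ± 0.18 to 15.2 ± 0.843 and FCRLB from 19 ± 0.447 to 68.7 ± 2.79. Among the APOBEC3 cytidine deaminases, APOBEC3C rose from 34.5 ± 0.658 to 102 ± 1.59 FPKM and APOBEC3B from 4.36 ± 0.275 to 9.5 ± 0.623. These deaminases share sequence, and reads may pass between them.

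Chemokine receptors moved in both directions. CXCR4, which holds B cells in the germinal center dark zone and in bone marrow, fell from 237 ± 6.26 to 112 ± 4.92 FPKM (log2 change -1.08, SE 0.25, adjusted p = 0.00148). CXCR5, which draws B cells to follicles, rose from 9.13 ± 0.478 to 14 ± 0.531 FPKM. CCR7 went from 0.423 ± 0.081 to 7.01 ± 0.595, CXCR2 from 0.0564 ± 0.0166 to 2.95 ± 0.13 and CCR1 from 0.355 ± 0.0192 to 3.38 ± 0.112; these receptors passed the level filter through the treated libraries alone and so had to be higher there. Of 79 mitochondrial ribosomal proteins 31 fell and 6 rose (median -0.16), and of 17 cytosolic aminoacyl-tRNA synthetases 9 fell and 3 rose (median -0.24). Proteasome genes, taken by their symbols (PSMA to PSMD), fell in 8 of 41 and rose in 9. The risers include PSMB8, PSMB9 and PSMB10, which the MHC class I list also holds. These counts stand against 25.7% falling and 22.3% rising among all genes.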
